A study of Homo sapiens with 6 samples.

Results

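The genes described here are the transcriptional output arm of the Hippo pathway: the coactivators YAP1 and TAZ (gene WWTR1), the transcription factors TEAD1, TEAD2, TEAD3 and TEAD4, and the target genes CCN1, CCN2, ANKRD1 and AMOTL2. They, and the lists of related genes below, were chosen by name with earlier results of these data known. All 10 of 10 were found by Ensembl identifier among 26425 genes with a value. After summing the deposited values over the transcripts of each gene, 9 of the 10 exceeded 1 RPKM (reads per kilobase of transcript, scaled to the mapped reads of the library) in at least 3 libraries and so were among the 11889 genes tested, and ANKRD1 was not. RNA came from SUM1315, an established triple-negative breast cancer cell line of mammary origin, with its genotype labelled as wild type. The 3 hypoxia libraries were from cells kept for 24 h in a sealed chamber at 1% O2, and the 3 normoxia libraries were from cells at 21% O2. Both groups were of this single cell line and were grown in serum-containing medium with insulin and epidermal growth factor. The labels do not say that the libraries came from separate cultures, so each p-value is set against a spread between libraries that can be technical.

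In the Hippo pathway, the MST kinases activate the LATS kinases, and LATS phosphorylation keeps YAP and TAZ in the cytoplasm or marks them for degradation. When LATS is inactive, YAP and TAZ enter the nucleus and bind TEAD factors, which carry the DNA-binding domain that the coactivators lack, and genes for matrix proteins, growth factors and pathway inhibitors are transcribed. This control acts largely on the proteins, so transcript levels give the amount of message for each part and not the activity of YAP or TAZ. In breast cancer cells TAZ and YAP are studied for their roles in invasion, matrix stiffness sensing and metastasis.

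The check genes of the hypoxic response all rose in hypoxia. On the log2(RPKM + 1) scale VEGFA, an angiogenic growth factor, changed by 1.07, SLC2A1, a glucose transporter, by 2.88, and DDIT4, an inhibitor of mTORC1, by 3.02. DDIT4 overlaps DDIT4-AS1 on the other strand, which averaged 160 RPKM over all libraries, and the strand of counting is not stated. Estimated depth was 44.0 to 50.6 M reads in hypoxia and 50.2 to 50.7 M reads in normoxia, the lowest being hypoxia 3. Of the 11889 genes, 36.8% changed in hypoxia, 12.4% upward and 24.4% downward, and the median log2 change over all of them was -0.09. Of all called genes 66.2% fell as the values were deposited, and the share was 41.3% with median-of-ratios scaling, 42.9% with upper-quartile scaling and 78.1% with equal library sums. The epithelial markers EPCAM, CDH1, KRT8, KRT18 and KRT19 summed to only 0.042 to 0.119 RPKM in hypoxia and 0.013 to 0.159 RPKM in normoxia, so the defining markers of luminal epithelium were at or near 0 in this mammary line, and so were the 4 basal markers (0.0701 to 0.174 RPKM and 0.0782 to 0.127 RPKM summed). VIM, the mesenchymal intermediate filament, stood at 6307 to 7439 RPKM in hypoxia and 4741 to 4901 RPKM in normoxia. The 5 mesenchymal markers summed to 6320 to 7450 RPKM in hypoxia and 4760 to 4910 RPKM in normoxia, nearly all of it VIM. The others, CDH2, FN1, ZEB1 and SNAI2, lay between 1.19 and 8.5 RPKM in every library, and each overlapped between the groups. ESR1 did not exceed 0.209 RPKM in any library, PGR had no value, and ERBB2 was at 20.2 to 23.7 RPKM in hypoxia and 21.2 to 21.8 RPKM in normoxia. Among markers of other cell types, the immune list summed to 73.7 to 80.9 RPKM in hypoxia and 45.9 to 48.5 RPKM in normoxia, and 1 of its 5 genes, the lysosomal protein gene CD68, passed the filter, while PTPRC was at 0 in 5 of 6 libraries. The fibroblast list summed to 359 to 406 RPKM in hypoxia and 241 to 281 RPKM in normoxia, nearly all of it COL1A1, with LUM at 0 in 5 of 6 libraries and DCN without a value. The endothelial list stayed at or under 0.177 RPKM. The part of these marker shifts in the results below was not tested. All libraries were of this single cell line, and in bulk RNA a change in the share of cells that express a gene and one in its RNA per cell cannot be told apart.

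Of the 9 genes of the YAP and TEAD group that were tested, 2 rose (CCN2 and AMOTL2), 2 fell (WWTR1 and TEAD4) and 5 did not pass the test at an adjusted p of 0.05. That is 44.4% changed, against 36.8% of all tested genes, of which 12.4% rose and 24.4% fell. With 22.2% raised and 22.2% lowered, the share that fell lay near that of all genes. The median log2 change of the 9 genes was -0.14, beside -0.09 for all tested genes, with 6 negative and 3 positive values. In 2 genes every hypoxia library lay above every normoxia library and in 4 every hypoxia library lay below, against 16.4% and 35.5% of all tested genes. The coactivators and all 4 TEAD factors had negative estimates, as had 7585 of the 11889 tested genes, and the 3 tested targets had positive ones, although the estimate of CCN1 was close to 0 and turned negative with libraries scaled to equal sums (-0.055) and without hypoxia 2 (-0.013). The 2 increases were called in every alternative except AMOTL2 without a filter. The decreases were called in 0 genes with median-of-ratios or upper-quartile scaling and without any 1 of normoxia 1, normoxia 2 or normoxia 3, in 1 gene without hypoxia 2, and in 4 genes with libraries scaled to equal sums.

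**Figure D1:**
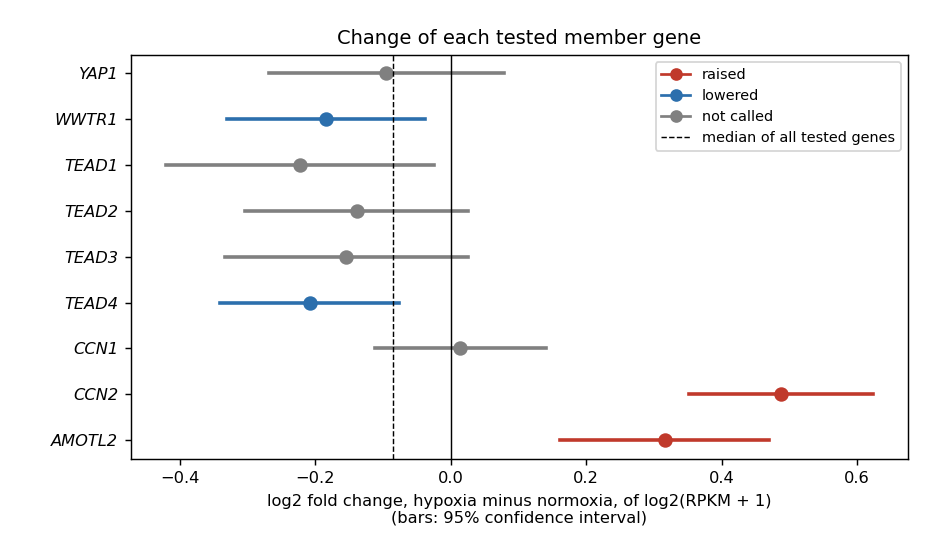
Log2 fold change (hypoxia minus normoxia, log2(RPKM + 1) scale) of the 9 tested genes, each point with its 95% confidence interval. CCN2 at 0.49 and AMOTL2 at 0.32 lie above 0, the 6 coactivator and TEAD genes lie below it, and CCN1 is at 0.01.

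By mean RPKM in hypoxia the order of the genes was CCN1, AMOTL2, CCN2, WWTR1, TEAD4, YAP1, TEAD2, TEAD1, TEAD3 and ANKRD1, and in normoxia it was the same except that WWTR1 stood above CCN2. No neighbours in either order overlapped in their libraries. The coactivators differed in level. Per kilobase, WWTR1 transcripts were the more abundant of the pair in all 6 libraries. YAP1, on chromosome 11 (chr11:102110461-102233423, plus strand, GRCh38), had 30.2, 24.8 and 30.1 RPKM in hypoxia libraries 1, 2 and 3, against 29.7, 30.1 and 30.9 RPKM in normoxia libraries 1, 2 and 3. Hypoxia 2 was the low library, and the other hypoxia libraries lay within the range of normoxia. YAP1 averaged 28.4 ± 3.11 RPKM in hypoxia and 30.2 ± 0.589 RPKM in normoxia (SD, n = 3 each), a log2 change of -0.10 (SE 0.079, 95% confidence interval -0.27 to 0.08, limma adjusted p = 0.361). The interval runs from a fold of 0.831 to one of 1.06, so with the values as deposited larger changes of YAP1 message in either direction lay outside it. It depends on the scaling, as the log2 change was -0.16 with equal library sums and -0.01 with median-of-ratios scaling. Over all alternatives limma adjusted p was 0.14 to 0.97.

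WWTR1, which encodes TAZ (chr3:149517235-149736714, minus strand), had 58.2, 51.9 and 61.0 RPKM in hypoxia, against 64.3, 64.3 and 65.7 RPKM in normoxia. All hypoxia libraries were lower than all normoxia libraries, and hypoxia 2 was again the lowest. WWTR1 averaged 57.0 ± 4.68 RPKM in hypoxia and 64.7 ± 0.827 RPKM in normoxia (SD, n = 3 each), and the log2 change of -0.18 (SE 0.066) passed the threshold narrowly (limma adjusted p = 0.0494). The call was lost in 10 of 14 alternatives, with limma adjusted p between 0.0134 and 0.267 over all of them: with median-of-ratios scaling the log2 change was -0.10 (limma adjusted p = 0.267), without hypoxia 2 it was -0.12 (limma adjusted p = 0.13), and limma adjusted p was 0.058 without hypoxia 1, 0.118 without normoxia 1, 0.122 without normoxia 2 and 0.146 without normoxia 3.

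Set against each other within a library, the log2 ratio of YAP1 to WWTR1 averaged -0.98 ± 0.058 in hypoxia and -1.07 ± 0.011 in normoxia (SD, n = 3 each). The difference of 0.089 gave an exact permutation p of 0.1, 2-sided, which is the smallest that 3 against 3 libraries allow. YAP1 made up 34.2%, 32.3% and 33.0% of the summed RPKM of the pair in hypoxia, against 31.6%, 31.9% and 32.0% in normoxia. The groups did not overlap, but hypoxia 2 came within 1 percentage point of every normoxia library. The sum of both coactivators was 88.4, 76.6 and 91.1 RPKM in hypoxia, against 94.0, 94.3 and 96.6 RPKM in normoxia, so every hypoxia library was lower.

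**Figure D2:**
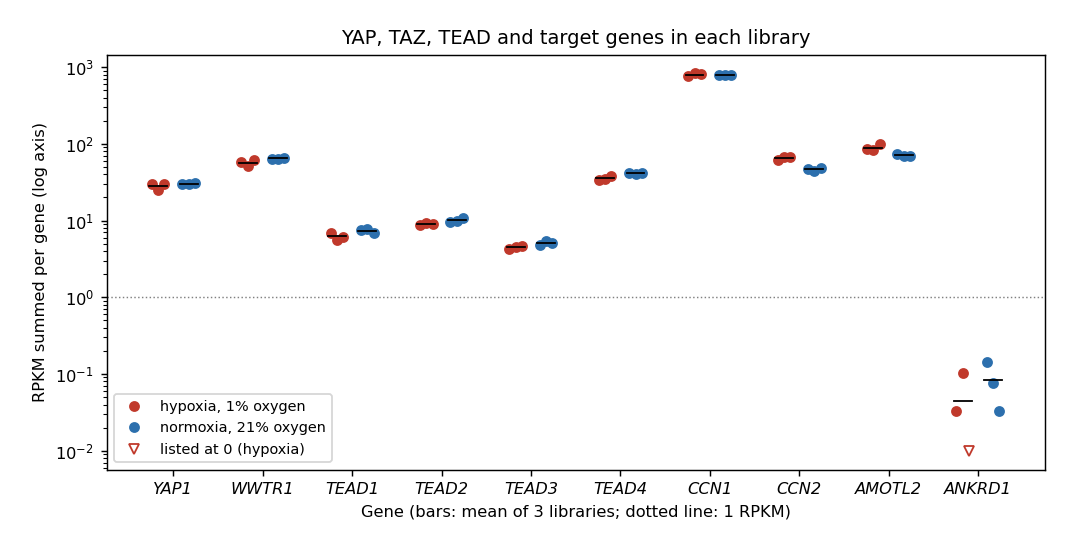
RPKM of each gene in each library on a log axis, with the 3 hypoxia libraries left of the 3 normoxia libraries and a bar at each group mean. CCN1 averages 797 RPKM in hypoxia and 788.8 RPKM in normoxia and ANKRD1 is close to 0, while CCN2 and AMOTL2 are higher in every hypoxia library.

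TEAD4 was the leading TEAD factor of this line. It averaged 35.5 ± 1.95 RPKM in hypoxia and 41.1 ± 0.215 RPKM in normoxia (SD, n = 3 each), or 63.0%, 64.4% and 65.4% of the summed TEAD RPKM in hypoxia and 65.4%, 63.9% and 64.5% in normoxia. The order TEAD4, TEAD2, TEAD1, TEAD3 held for the means of both groups, and no neighbours in it overlapped in their libraries. The sum of the 4 factors was 53.6, 54.7 and 57.5 RPKM in hypoxia, against 62.9, 64.1 and 64.1 RPKM in normoxia. The share of TEAD4 in this sum overlapped between groups, while the sum itself was lower in every hypoxia library.

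TEAD4 (chr12:2959330-3040673, plus strand) had 33.7, 35.2 and 37.6 RPKM in hypoxia, against 41.2, 40.9 and 41.3 RPKM in normoxia. Its hypoxia libraries were all below its normoxia libraries, and the normoxia libraries lay very close together. The log2 change was -0.21 (SE 0.06, 95% confidence interval -0.34 to -0.08, limma adjusted p = 0.0209). It was -0.12 with median-of-ratios scaling (limma adjusted p = 0.135), upper-quartile scaling gave limma adjusted p = 0.104, and limma adjusted p was 0.0764 without normoxia 1, 0.0738 without normoxia 2 and 0.0781 without normoxia 3, while the log2 change stayed between -0.25 and -0.17 with any 1 library left out.

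TEAD1 (chr11:12674591-12944483, plus strand), a factor known from heart and muscle, had 6.97, 5.57 and 6.14 RPKM in hypoxia, against 7.502, 7.79 and 6.92 RPKM in normoxia. Hypoxia 1 and normoxia 3 were nearly equal, so the groups overlapped slightly. Its log2 change of -0.22 (SE 0.09) did not pass the test (limma adjusted p = 0.0735), and it did pass without hypoxia 1 (limma adjusted p = 0.028) and with equal library sums (limma adjusted p = 0.0406). TEAD2 (chr19:49340595-49362457, minus strand), known as the TEAD of early embryos and neural progenitors, had 8.64, 9.32 and 9.05 RPKM in hypoxia, against 9.44, 9.94 and 10.7 RPKM in normoxia. TEAD3 (chr6:35473597-35497076, minus strand), known from placenta, had 4.24, 4.58 and 4.68 RPKM in hypoxia, against 4.81, 5.41 and 5.14 RPKM in normoxia. In both genes every hypoxia library lay below every normoxia library, but neither change passed the test. The log2 change was -0.14 for TEAD2 (SE 0.075, limma adjusted p = 0.161) and -0.15 for TEAD3 (SE 0.082, limma adjusted p = 0.157), and TEAD2 passed with equal library sums (limma adjusted p = 0.0461).

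The targets are the genes usually read as a measure of YAP, TAZ and TEAD activity, and here they did not move together. CCN2, formerly CTGF, encodes a secreted matricellular protein that binds integrins and growth factors and is linked to fibrosis and to metastasis of breast cancer to bone. Its promoter carries a known cluster of TEAD sites. The 250 bases before the RefSeq start of CCN2 (GRCh38.p14, chr6:131951373-131951622, minus strand) are shown because this gene had the largest increase of the group, with each TEAD core GGAATG in capitals.
CCN2 promoter: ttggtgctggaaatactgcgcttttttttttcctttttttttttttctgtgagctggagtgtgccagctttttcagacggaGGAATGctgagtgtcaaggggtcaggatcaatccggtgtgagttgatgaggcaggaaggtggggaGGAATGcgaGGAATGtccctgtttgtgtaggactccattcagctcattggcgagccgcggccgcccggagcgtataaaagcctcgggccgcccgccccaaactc
The cores began 169, 104 and 95 bases before the start, all on the strand of the gene. Counting both strands, the core was found at least once in 11.9% of the 35116 promoters of the same table, each read over the 250 bases before its start, and at least 3 times in 29 of them, or 0.0826%.

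CCN2 (chr6:131948176-131951373, minus strand) had 62.0, 68.4 and 67.8 RPKM in hypoxia, against 47.6, 44.7 and 48.1 RPKM in normoxia. The groups were well apart, with the lowest hypoxia library above the highest normoxia library. It averaged 66.0 ± 3.54 RPKM in hypoxia and 46.8 ± 1.83 RPKM in normoxia (SD, n = 3 each), a log2 change of 0.49 (SE 0.062, 95% confidence interval 0.35 to 0.62, limma adjusted p = 0.000271). This is 1.41 times as much message. The call held in all 14 alternatives, with log2 changes of 0.42 to 0.57 and limma adjusted p of 6.3e-05 to 0.011. Among the 11889 tested genes the change stood at percentile 95.8. CCN2 exceeded WWTR1 in all hypoxia libraries and was below it in all normoxia libraries.

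AMOTL2 encodes an angiomotin family scaffold that binds YAP and helps keep it out of the nucleus, and as a YAP target it is part of a negative feedback. It had 86.2, 82.9 and 98.1 RPKM in hypoxia, against 74.6, 69.3 and 69.8 RPKM in normoxia (chr3:134355874-134375479, minus strand). All hypoxia libraries were higher, hypoxia 3 most. The means were 89.1 ± 8.01 RPKM in hypoxia and 71.2 ± 2.93 RPKM in normoxia (SD, n = 3 each), a log2 change of 0.32 (SE 0.07, 95% confidence interval 0.16 to 0.47, limma adjusted p = 0.00616), or 1.25 times as much message. Without a filter on low values the limma adjusted p was 0.0603.

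CCN1, formerly CYR61, is the close relative of CCN2, a secreted matricellular protein that supports adhesion and angiogenesis. It was by far the most abundant gene of the group, at rank 98 of the 11889 tested genes by mean RPKM. It had 759.8, 827.2 and 804.0 RPKM in hypoxia, against 788.0, 799.7 and 778.8 RPKM in normoxia (chr1:85580761-85583962, plus strand). The normoxia libraries all lay inside the range of the hypoxia libraries. The log2 change was 0.014 (SE 0.058, limma adjusted p = 0.863), with a 95% confidence interval of -0.11 to 0.14, or a fold of 0.925 to 1.10. The log2 change of CCN2, 0.49, lay outside that interval.

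The log2 ratio of CCN1 to CCN2 within a library was 3.60, 3.58 and 3.55 in hypoxia, against 4.02, 4.13 and 3.99 in normoxia. Every hypoxia library was lower. The difference of -0.47 had an exact permutation p of 0.1, 2-sided, the smallest that this design allows, and it ranged from -0.50 to -0.43 when 1 library at a time was left out.

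ANKRD1, which encodes a nuclear and sarcomeric ankyrin repeat protein and is a strong YAP target in many epithelial and mesenchymal cells, was barely detected. It had 0.0331, 0.102 and 0 RPKM in hypoxia, against 0.143, 0.0769 and 0.0332 RPKM in normoxia (chr10:90912096-90921276, minus strand). That is an estimated 3.31, 9.95 and 0 reads in hypoxia and 14.3, 7.7 and 3.3 reads in normoxia, and the groups overlapped. At this depth a difference was not detectable, and when fitted without a filter its log2 change was -0.05 (limma adjusted p = 0.574). The other targets had at least 5291 estimated reads in every library.

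TEAD cores before the RefSeq starts of other genes are shown for comparison with the CCN2 cluster. Each stands in 30 bases on the strand of the gene (GRCh38.p14), with the core in capitals as GGAATG, or as CATTCC where it lies on the other strand.
AMOTL2 site, chr3:134374499-134374528, minus strand: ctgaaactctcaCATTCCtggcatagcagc
ANKRD1 distal site, chr10:90921290-90921319, minus strand: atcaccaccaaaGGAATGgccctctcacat
ANKRD1 proximal site, chr10:90921198-90921227, minus strand: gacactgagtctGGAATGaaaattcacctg
YAP1 site, chr11:102110273-102110302, plus strand: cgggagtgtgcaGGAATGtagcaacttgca
RefSeq promoter windows were matched for 7 of the 10 genes, and CCN1, TEAD1 and TEAD4 had none. A core was found in 4 of the 7 (CCN2 with 3, ANKRD1 with 2, AMOTL2 and YAP1 with 1 each). ANKRD1, with 2 cores, was the gene with almost no message, and AMOTL2, with 1 core, rose. Whether any core acts in these cells was not tested. For CCN2 all of the RPKM came from a transcript whose start lies within 1 base of the RefSeq start. For AMOTL2 and YAP1 47.5% and 55.9% of the RPKM came from transcripts that begin within 100 bases of it. The AMOTL2 core lies inside some AMOTL2 transcripts that begin further upstream, among them AMOTL2-209 and AMOTL2-201, with 24.1% and 15.9% of its RPKM. The only ANKRD1 transcript of the annotation begins 189 bases upstream, so the proximal ANKRD1 site lies inside it.

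Other motifs were searched on both strands of the same 250-base windows. The hypoxia response core ACGTG, bound by HIF factors, was found in YAP1 only, where the 2 matches are overlapping readings of 1 palindrome, and in 18.5% of all windows. The variant core GCGTG was found in WWTR1 only, and in 32.2% of all windows. The AP-1 motif TGANTCA, bound by factors that often share enhancers with TEAD, was found in ANKRD1 only, and in 6.57% of all windows. The CCN2 and AMOTL2 windows held none of these 3 motifs. Binding of HIF or any other factor to these matches was not tested.

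**Figure D3:**
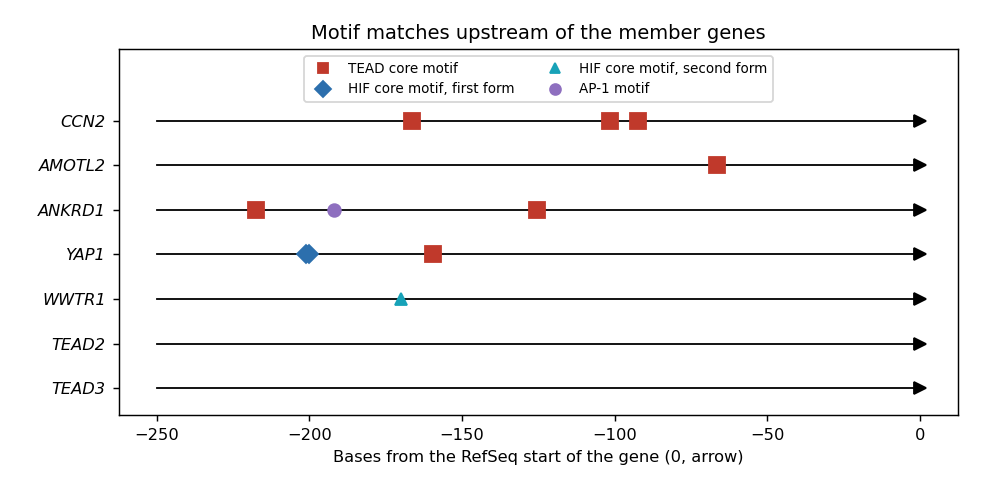
Positions of the motif matches along the promoter window of each matched gene, in bases from the RefSeq start, where the lines end in an arrow. The HIF forms are ACGTG (first) and GCGTG (second). CCN2 has 3 TEAD cores, at 169, 104 and 95 bases before the start, ANKRD1 has 2, and AMOTL2 and YAP1 have 1 each.

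At the level of single transcripts 6.72% of 26790 tested transcripts were called, 3.5% upward and 3.22% downward. Of 27 tested transcripts of the group 1 was called, the single CCN2 transcript CTGF-201 (limma adjusted p = 0.0078), and it was not called without normoxia 2 (limma adjusted p = 0.0552) or without a filter (limma adjusted p = 0.0703). CCN1 was read almost entirely from CYR61-201 (99.7% of its RPKM over the 6 libraries) and TEAD3 from TEAD3-201 (98.4%). WWTR1 was split between WWTR1-204 (50%) and WWTR1-201 (46.9%), and TEAD4 mainly between TEAD4-202 (64.5%) and TEAD4-201 (24.8%). TEAD1 was mostly TEAD1-206 (78.0%), and TEAD2 mostly TEAD2-201 (55.7%). AMOTL2 was led by the coding transcript AMOTL2-202 (42.1%), and a further 24.1% was AMOTL2-209, a processed transcript of 577 bases that carries no annotated coding sequence. In AMOTL2-202 and AMOTL2-201, both coding, every hypoxia library was above every normoxia library, with log2 changes of 0.21 (limma adjusted p = 0.0842) and 0.22 (limma adjusted p = 0.163).

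YAP1 had 4 transcripts that each held at least 10% of its RPKM, with YAP1-208 at 33.3%, YAP1-204 at 18.6%, YAP1-201 at 18.4% and YAP1-209 at 11.2%. Among the transcripts that made up at least 10% of their gene, YAP1-209 was the only one whose share of the gene did not overlap between groups, at 11.4%, 11.8% and 6.34% in hypoxia, against 13.0%, 12.2% and 12.3% in normoxia. Hypoxia 3 stood far below the rest. How often such shares separate over all transcripts was not computed, so no shift in YAP1 transcript use is read from this. The 4 YAP1 transcripts over 5000 bases, grouped after their values were seen, held 35.3%, 46.1% and 22.8% of YAP1 RPKM in hypoxia, against 37.4%, 41.1% and 42.3% in normoxia. Their share varied more among the hypoxia libraries than between the groups.

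**Figure D4:**
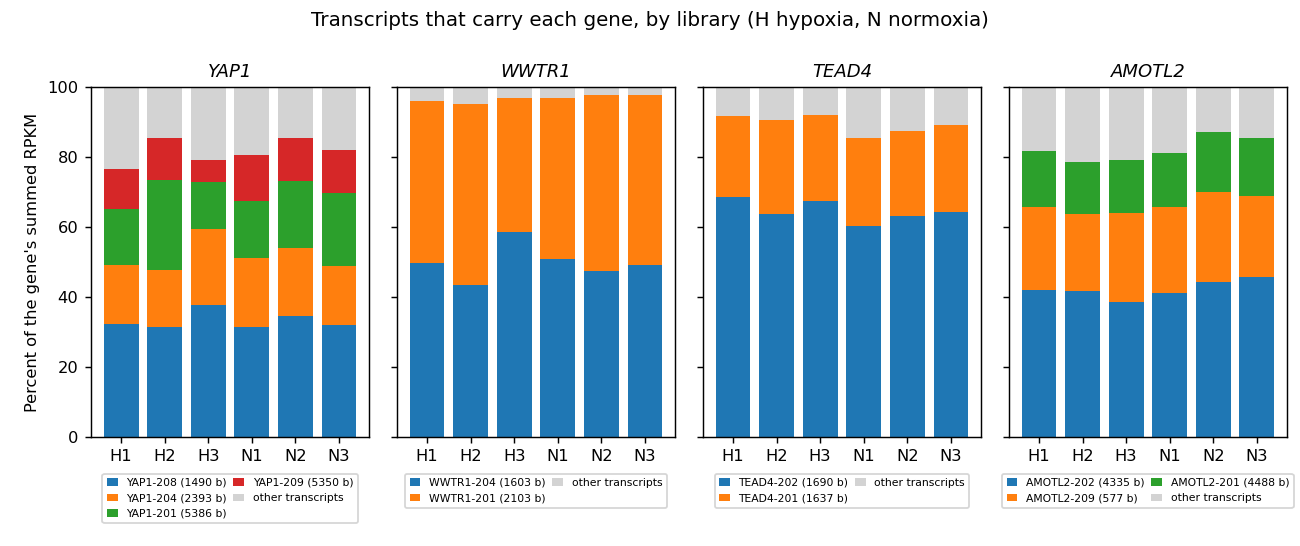
Share of each gene's RPKM (percent) held by its main transcripts in the 3 hypoxia libraries and, to their right, the 3 normoxia libraries. The shares of the 2 groups overlap for every named transcript shown except YAP1-209, which is lowest in hypoxia 3 at 6.34%.

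Of 22 listed genes of the kinase cassette upstream of YAP 20 were tested, and 2 rose and 5 fell (10% and 25%, against 12.4% and 24.4% of all tested genes), with a median log2 change of -0.15. Both shares were near those of all genes. The genes that fell were MOB1B and MOB1A, the coactivators of the LATS kinases, MAP4K4, a kinase that phosphorylates LATS in parallel to MST, LATS1 itself, and NF2, which encodes the membrane scaffold merlin. MAP4K4 averaged 63.1 ± 4.29 RPKM in hypoxia and 83.3 ± 1.11 RPKM in normoxia (log2 change -0.40, limma adjusted p = 0.000972). MOB1A averaged 18.4 ± 0.756 RPKM in hypoxia and 23.4 ± 1.58 RPKM in normoxia (log2 change -0.34, limma adjusted p = 0.00453). MOB1B had a log2 change of -0.40 (limma adjusted p = 0.00302), but it overlaps DCK on the same strand.

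LATS1 averaged 4.69 ± 0.46 RPKM in hypoxia and 5.93 ± 0.119 RPKM in normoxia (log2 change -0.29, limma adjusted p = 0.0224), while LATS2 averaged 7.97 ± 0.286 RPKM in hypoxia and 8.39 ± 0.322 RPKM in normoxia, with overlapping groups (log2 change -0.07, limma adjusted p = 0.498). NF2 averaged 28.6 ± 2.83 RPKM in hypoxia and 34.8 ± 1.11 RPKM in normoxia (log2 change -0.28, limma adjusted p = 0.015). LATS1, LATS2 and NF2 were picked out after their values were seen, as were the MST kinase genes STK3 and STK4. STK3 averaged 4.87 ± 1.12 RPKM in hypoxia and 6.12 ± 0.393 RPKM in normoxia (limma adjusted p = 0.088), and STK4 averaged 8.05 ± 0.921 RPKM in hypoxia and 9.45 ± 0.334 RPKM in normoxia (limma adjusted p = 0.0737). STK4 passed the test without hypoxia 1 (limma adjusted p = 0.0214). The genes that rose were SAV1, the scaffold of the MST kinases, with a log2 change of 0.36 (limma adjusted p = 0.0202), and FRMD6, a membrane scaffold that can activate the cascade, at 49.7 ± 3.08 RPKM in hypoxia and 42.0 ± 0.547 RPKM in normoxia (log2 change 0.24, limma adjusted p = 0.0134).

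The count of 7 changed cassette genes was 4 without normoxia 1 and 3 without normoxia 3, and leaving out 1 normoxia library also lowered the count over all genes to between 2550 and 2819, against 4379 with all libraries. The log2 changes themselves kept their sign, at -0.35 to -0.23 for LATS1, -0.35 to -0.22 for NF2, 0.28 to 0.44 for SAV1 and 0.21 to 0.29 for FRMD6 with 1 library left out. Limma adjusted p for LATS1 was 0.0559 without hypoxia 2, 0.0655 without normoxia 1, 0.0835 without normoxia 2 and 0.0655 without normoxia 3, and for NF2 it was 0.0649 without normoxia 2 and 0.0563 without normoxia 3. For SAV1 it was 0.0564 without hypoxia 2, 0.0871 without normoxia 1 and 0.0568 without normoxia 3, and for FRMD6 it was 0.0519 without normoxia 1 and 0.0594 without normoxia 3. With median-of-ratios scaling LATS1 (limma adjusted p = 0.0764) and NF2 (limma adjusted p = 0.0744) were not called.

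Of 7 listed proteins that bind YAP or TEAD 4 were tested, and 1 rose and 1 fell (25% each, against 12.4% and 24.4% of all tested genes), with a median log2 change of -0.01. VGLL4, which competes with YAP for TEAD, rose to 35.7 ± 2.4 RPKM in hypoxia, against 26.2 ± 0.452 RPKM in normoxia (log2 change 0.43, limma adjusted p = 0.000875), but it overlaps ATG7 on the other strand, and the strand of the counted reads is not given. PTPN14, a phosphatase that holds YAP in the cytoplasm and is itself a YAP target, fell to 7.96 ± 1.32 RPKM in hypoxia, against 10.5 ± 0.953 RPKM in normoxia (log2 change -0.37, limma adjusted p = 0.0223). Its limma adjusted p was 0.0526 without hypoxia 2, 0.0545 without normoxia 1, 0.0908 without normoxia 2 and 0.0652 with median-of-ratios scaling. AMOT and AMOTL1, the relatives of AMOTL2, had log2 changes of 0.15 (limma adjusted p = 0.305) and -0.18 (limma adjusted p = 0.152).

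All 11 genes that restrain LATS or MST kinases were tested, and 0 rose and 3 fell (0% and 27.3%, against 12.4% and 24.4% of all tested genes), with a median log2 change of -0.16. The share that fell was near that of all genes. Among those that fell were STRN3 and FGFR1OP2, subunits of the STRIPAK phosphatase complex, which dephosphorylates MST kinases, with log2 changes of -0.26 (limma adjusted p = 0.0201) and -0.21 (limma adjusted p = 0.0478). Neither was called with median-of-ratios scaling (limma adjusted p = 0.0871 for STRN3 and 0.219 for FGFR1OP2), where the count for the list was 0. The count was 5 without hypoxia 1 and 1 without any 1 normoxia library. STRN3 was not called without normoxia 2 or normoxia 3 (limma adjusted p = 0.065 and 0.0981), and FGFR1OP2 was not called without any 1 library other than hypoxia 1 (limma adjusted p from 0.0751 to 0.187). STRN3 overlaps COCH on the other strand. SIAH2, a ubiquitin ligase known to mark LATS2 for degradation in hypoxic cells, had 15.5 ± 1.17 RPKM in hypoxia and 14.4 ± 0.838 RPKM in normoxia, with overlapping groups (log2 change 0.09, limma adjusted p = 0.364).

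Of a wider list of 18 YAP and TAZ targets 16 were tested, and 4 rose and 2 fell (25% and 12.5%, against 12.4% and 24.4% of all tested genes), with a median log2 change of -0.02. IGFBP3, a carrier of insulin-like growth factors, had 764.7, 913.7 and 772.1 RPKM in hypoxia, against 324.2, 294.7 and 334.2 RPKM in normoxia. The groups were far apart, and its log2 change of 1.36 (SE 0.079, limma adjusted p = 5.38e-07) was the largest of the list. RBMS3, an RNA-binding protein gene, averaged 8.29 ± 0.23 RPKM in hypoxia and 5.88 ± 0.381 RPKM in normoxia (log2 change 0.43, limma adjusted p = 0.00203), and CCDC80, a matrix protein gene, averaged 16.9 ± 0.859 RPKM in hypoxia and 12.6 ± 0.794 RPKM in normoxia (log2 change 0.40, limma adjusted p = 0.00246). MYOF, a membrane repair protein gene named after its value was seen, was the other gene that rose (log2 change 0.26, limma adjusted p = 0.0106).

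TGFB2, a secreted growth factor gene, fell to 5.12 ± 0.601 RPKM in hypoxia, against 6.95 ± 0.138 RPKM in normoxia (log2 change -0.38, limma adjusted p = 0.00788), and PTPN14, described above, was the other gene that fell. The receptor tyrosine kinase gene AXL, named after its value was seen, was higher in every hypoxia library, at 170.4 ± 14.4 RPKM in hypoxia and 152.7 ± 3.95 RPKM in normoxia, but did not pass the test (limma adjusted p = 0.0867). AXL was called with median-of-ratios scaling (limma adjusted p = 0.0189) and without hypoxia 2 (limma adjusted p = 0.0485). Of 6 paralogs of the CCN and ANKRD targets 2 were tested, CCN3 (log2 change 0.01, limma adjusted p = 0.916) and ANKRD23 (log2 change -0.10, limma adjusted p = 0.474), and at an unadjusted p of 0.05 neither passed. ANKRD23 averaged only 1.28 RPKM in hypoxia and 1.44 RPKM in normoxia. It overlaps ANKRD39 on the same strand and CNNM3 on the other, which averaged 14.7 and 9.93 RPKM over all libraries.

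**Figure D5:**
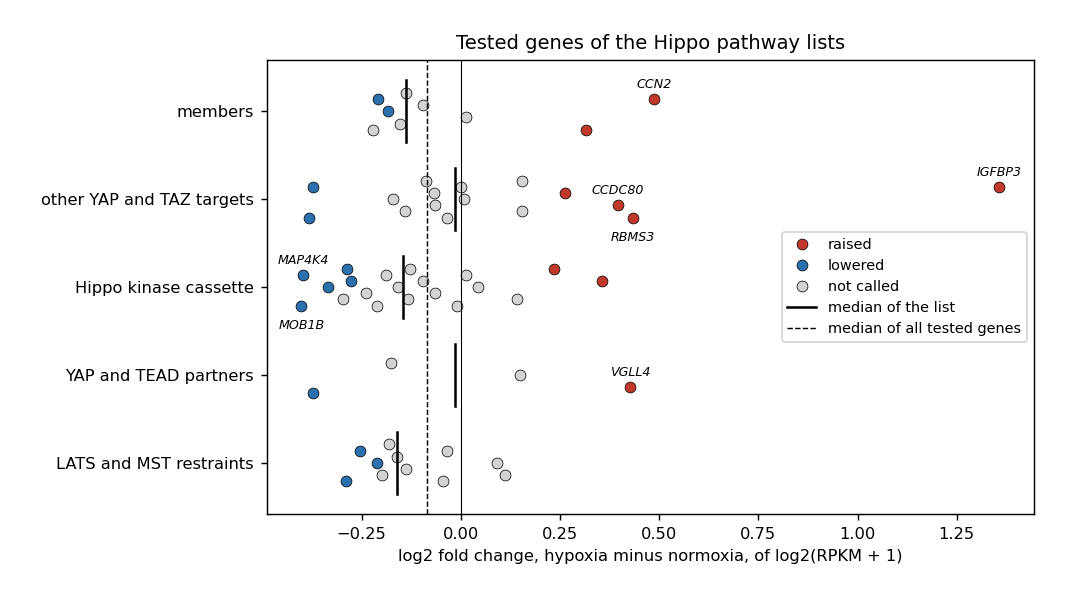
Log2 fold change (hypoxia minus normoxia, log2(RPKM + 1) scale) of every tested gene in 5 lists, with the genes of the YAP and TEAD group as the members row, a bar at each list median and a line at -0.09, the median of all tested genes. The list medians lie between -0.16 and -0.01, and IGFBP3 at 1.36 stands apart among the wider targets.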

How the data were processed

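Per the labels, total RNA of SUM1315 cells was made into libraries with the NEBNext Ultra kit. Per the submitters' processing notes, Trimmomatic, HISAT2, SAMtools and Partek were used, with GRCh38 (hg38) named as build; their settings and the strand of counting are not stated. The table that the authors deposited holds 1 set of values per Ensembl transcript and names no unit. The deposited values were read as RPKM because low values, multiplied by transcript length, are whole multiples of 1 step per library in 79.9% to 80.9% of cases (tolerance 0.1, multiples up to 20). This step gave the estimated depth of 44.0 to 50.7 M reads, at which 1 read in 2 kb is 0.00987 to 0.0114 RPKM. The values are estimates per transcript rather than whole reads, so no count test was run.

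Of 165956 transcripts 140023 (84.4%) matched GENCODE 29 and were summed by gene, and those without a match held 3.43% to 3.67% of RPKM per library. Genes above 1 RPKM in at least 3 libraries were compared, hypoxia minus normoxia, by limma 3.58.1 (trend, no block, R 4.3.3) on log2(RPKM + 1), with Benjamini-Hochberg adjustment over all tested genes and a threshold of 0.05. Fold changes on this scale understate those of low genes. Transcripts were fitted likewise, and 2 log ratios were compared by exact permutation. Coordinates are those of GENCODE 29 on GRCh38, and promoter sequences and starts are from RefSeq (GRCh38.p14). On simulated data for this comparison (11889 genes) the gene fit recovered 86% of changes of 0.5 and 78% of changes of -0.5 in log2, with 3.23% of its calls false. The simulation changed 50 genes at each of 1, 0.5, -0.5 and -1, a far smaller part than the 36.8% called in the data. Smaller changes, such as those of WWTR1 and TEAD4, were not simulated. These shares therefore do not measure recovery or false calls for the results given here.

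The genes and lists were chosen with earlier results of these data known. Named were all 10 genes, per other list the 3 largest called changes in each direction, transcripts with at least 10% of their gene, and 3 check genes. SIAH2, AMOT, AMOTL1, CCN3, ANKRD23, genes under the filter and cell type markers were named outside this rule. Genes picked after their values were seen are marked so above. One gene that this rule covers is not reported here. Alternatives were other library scalings, no filter or one of 5 RPKM, a pseudocount of 0.1, coding transcripts alone, a replicate block and each library left out. Same-numbered libraries deviated together with correlations of 0.089, 0.03 and -0.227, so the numbers were not taken as pairs.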

Additional observations from a re-analysis of the deposited data

How the results depend on the processing

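Of the values recomputed under the alternatives, the gene CCN2 was called higher in every one. Of the 4 changed genes of the YAP and TEAD group, 2 were called with median-of-ratios scaling, 2 with upper quartiles and 2 with no filter. The count that fell was 0 with median-of-ratios scaling, 0 with upper-quartile scaling, 4 with equal library sums, 1 with no filter and 1 with a pseudocount of 0.1, and the count that rose was 1 with no filter. With the replicate block 1 gene of the group fell, since WWTR1 had a limma adjusted p of 0.0563, FGFR1OP2 was lost as well (limma adjusted p = 0.0692), and no other call of a named gene changed. With no filter, 4 kinase cassette genes, 1 partner, 1 restraint, 3 wider targets and 1 paralog were called, and 2436 of all genes (1367 lower). With median-of-ratios and with upper-quartile scaling, 1 partner and 0 restraints were called, and 1421 and 1473 of all genes fell. For transcripts of the group the count was 2 with median-of-ratios, upper-quartile or equal-sum scaling, 0 with no filter and 3 with a filter of 5 RPKM. Leaving out 1 library at a time gave 2 to 4 changed genes of the group (2 higher in each case, 0 to 2 lower), 3 to 9 in the kinase cassette, 1 to 2 partners, 1 to 5 restraints, 5 to 7 wider targets, 0 paralogs, 0 to 1 transcripts, and 2550 to 4476 of all genes (1523 to 2865 lower, 1027 to 1611 higher). Estimates that changed sign were all small and not called. They were CCN1 (-0.055 with equal sums, -0.013 to 0.048 with a library left out), its transcript CYR61-201 (-0.056 with equal sums, -0.015 to 0.046 with a library left out), LATS2 (0.01 with median-of-ratios and 0.005 with upper-quartile scaling), YAP1-208 (0.029 with median-of-ratios, 0.012 with upper-quartile scaling, -0.156 to 0.087 with a library left out), YAP1-204 (-0.267 to 0.039) and WWTR1-204 (-0.308 to 0.013). The cause was not tested. Scaling moved the median of all genes by 0.074 at most, and with 3 libraries a group and changes this small, calls near the threshold depend on it. Below the filter, 1 read is worth a large part of a value, which limits ANKRD1.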

Other observations

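Some genes of the lists lay under the filter and entered no comparison, and were fitted only without one. ANKRD2, a muscle relative of ANKRD1, had 0.45, 0.727 and 0.707 RPKM in hypoxia, against 0.325, 0.394 and 0.288 RPKM in normoxia, so every hypoxia library was higher (log2 change 0.28, limma adjusted p = 0.0996). CCN5, a relative of CCN2 that lacks its C-terminal domain, had 0.146, 0.133 and 0.117 RPKM in hypoxia, against 0.0569, 0.0259 and 0.0252 RPKM in normoxia. It was called without a filter at a log2 change of 0.13 (limma adjusted p = 0.0191), with every hypoxia library higher. These values rest on few reads. CCN5 also overlaps KCNK15-AS1 on the other strand, which averaged 0.395 RPKM over all libraries, and the strand of counting is not stated. VGLL3, a TEAD cofactor, had 0.506, 0.324 and 0.387 RPKM in hypoxia, against 0.343, 0.656 and 0.413 RPKM in normoxia, and the groups overlapped. MAP4K1, of the kinase cassette list, had 0.2765, 0.2431 and 0.181 RPKM in hypoxia, against 0.2972, 0.4907 and 0.2804 RPKM in normoxia. Every hypoxia library of MAP4K1 was lower (log2 change -0.13, limma adjusted p = 0.314). The share of all genes without overlap was not computed for the fit without a filter.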
